A study of Mus musculus with 10 samples.

Results

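The unfolded protein response, ATF4 and heat shock genes described here are 38 genes, chosen as the rows of a mouse skin expression table whose symbols are on a fixed list, out of 24331 genes in that table. They comprise 5 regulators, 7 genes known as targets of ATF4 or CHOP, 12 chaperones and folding enzymes of the endoplasmic reticulum (ER), 4 genes of ER-associated degradation, 8 cytosolic heat shock genes and 2 subunits of the mitochondrial chaperonin. Rows were taken by name and not by their values, but the list was drawn up with earlier results of these data known. All 38 had a row in the table, and all 38 passed the filter on low values, at least 1 FPKM (sequenced fragments per kilobase of a gene's transcript, relative to all mapped fragments) in at least 2 libraries.

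The tissue was back skin of wild type male C57BL/6 mice of 7 to 8 weeks, whose hair follicles had been brought into growth by wax depilation. The agent was cyclophosphamide, a prodrug whose products crosslink DNA, injected into the peritoneum at 150 mg/kg 9 days after depilation. Skin of the 0h group was taken without the drug. Groups were skin taken before the injection (0h) and skin taken 6, 12, 24 or 48 hours after it (6h, 12h, 24h and 48h), with 2 libraries each and 10 in all. The samples used here hold no vehicle-injected mice, so the hours since injection and since depilation cannot be told apart. The hour of day of sampling is not in the labels, and so its part was not tested. Nothing in the labels says that the libraries of a time came from different mice. The p-values thus measure spread between libraries alone, and that spread may be technical.

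Cells answer misfolded protein in the ER with 3 sensors, IRE1 (gene Ern1), ATF6 and PERK. IRE1 splices Xbp1 mRNA and ATF6 is cleaved, and the resulting factors switch on ER chaperones and degradation genes. PERK and related kinases phosphorylate eIF2, which lowers general translation while raising translation of Atf4 mRNA, and ATF4 with its partner CHOP (gene Ddit3) then induces amino acid and stress genes such as Asns, Trib3 and Chac1. The cytosol has a separate system, in which HSF1 induces heat shock proteins. Splicing, cleavage, phosphorylation and translation are not visible in gene-level RNA values, so the members' mRNA levels are all that was read here.

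The libraries had 862653 to 978550 summed FPKM, a value that is not a depth. Relative depth, read from the smallest values the libraries share, was lowest in 0h library 2 (set to 1) and highest in 0h library 3 (1.42), and lay at 1.03 to 1.22 elsewhere. On the log2(FPKM + 1) scale, Pearson correlations were 0.984 to 0.989 within a time and 0.966 to 0.987 between times. Keratinocyte markers (Krt14, Krt5, Krt10), hair shaft keratins and dermal collagen (Col1a1) were all present, as the label of skin requires. Skeletal muscle markers summed to 5788 to 8701 FPKM after the injection and to 12945 and 14340 FPKM at 0h. In such bulk samples, fewer cells of a type and less RNA per cell cannot be told apart.

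Few members changed. In limma's test over 13625 genes with Benjamini-Hochberg adjustment, 0 members passed an adjusted p of 0.05 at 6h against 0h, where 0.0440% of all genes did, and 0 at 12h against 0h, where 1.08% did. At an unadjusted p under 0.05 the counts were 6 members at 6h (15.8%, beside 12.3% of all genes) and 9 at 12h (23.7%, beside 15.8%). At 24h and 48h they were 5 (13.2%, beside 20.6%) and 7 (18.4%, beside 24.8%). At 24h against 0h, 1 member rose and none fell, beside 3.32% of all genes called in either direction, 1.37% higher and 1.94% lower. At 48h against 0h, 2 members rose and none fell, beside 8.92% of all genes called, 4.80% higher and 4.12% lower, so that 2 of 38 lies near the background. The members' median log2 fold changes were 0.01, -0.04, -0.04 and 0.04 at 6h, 12h, 24h and 48h, beside 0.04, -0.07, -0.10 and -0.01 for all genes tested. Fold changes are differences of log2(FPKM + 1), which understates the change of genes with low values, and the 4 comparisons share the 0h libraries.

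**Figure D1:**
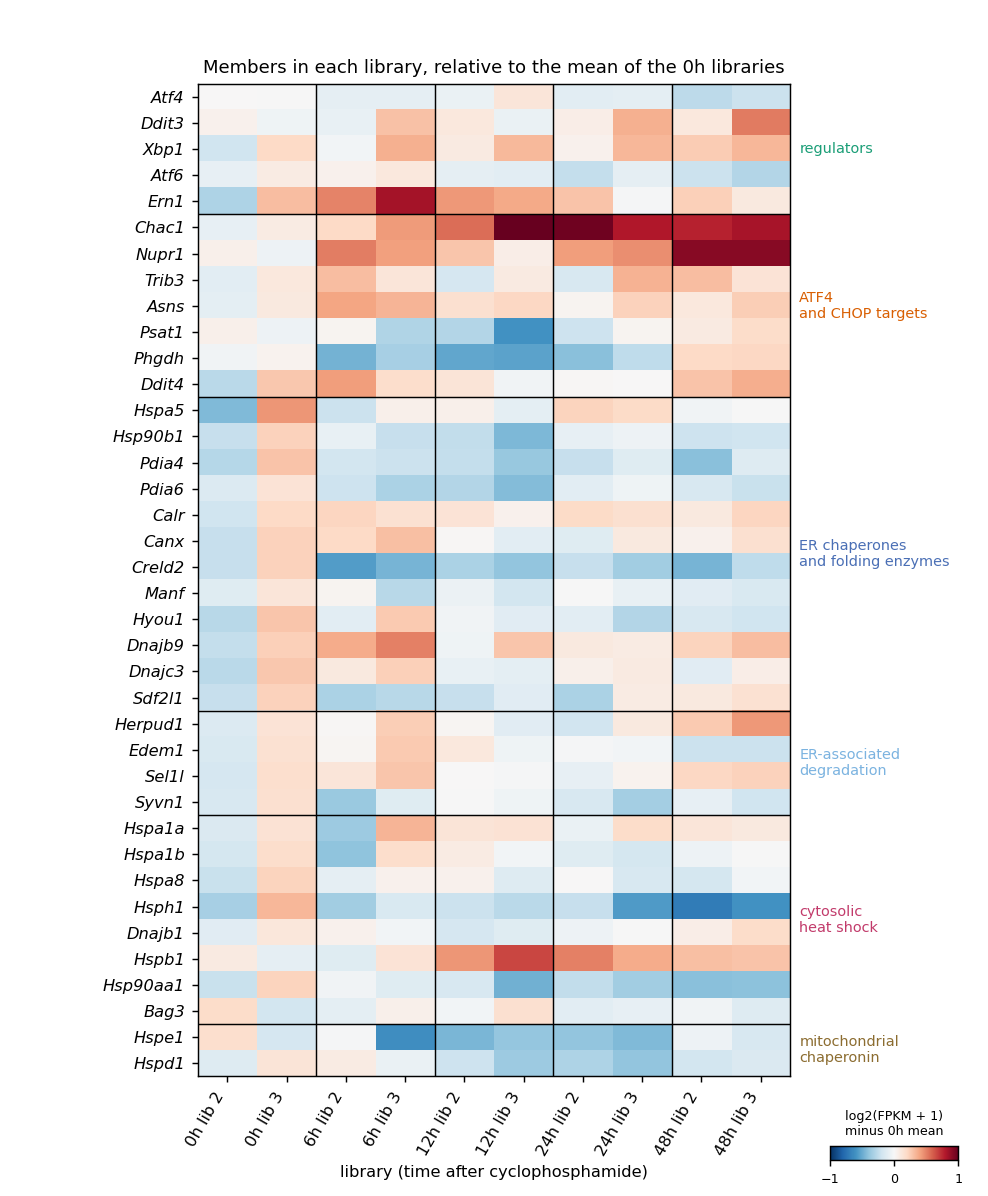
Each row is 1 of the 38 members and each column 1 library, in order of time after cyclophosphamide; colour is log2(FPKM + 1) minus the mean of the 0h libraries, and values beyond 1 take the end colour. Chac1 and Nupr1 are red in every library after 0h, Phgdh is blue at 6h, 12h and 24h only, and most ER chaperones differ more between the 0h libraries than over time.

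Most intervals were narrow enough to bound the change. In 34 of 38 members the 95% confidence interval of the change lay within 1 log2 unit at all 4 times, and the exceptions were Ern1, Chac1, Nupr1 and Hsph1. This unit is 2-fold in FPKM + 1, a wider bound in FPKM for genes with low values. The ratio of the highest to the lowest time mean of FPKM was under 1.5 in 32 of 38 members. The shares of all genes within these limits were not computed. The ratio of time means ran from 1.08 to 1.88 with a median of 1.29, beside a median of 1.40 over the 12993 tested genes with a mean of at least 1 FPKM. Both later libraries lay above both 0h libraries in 6, 5, 4 and 12 members at 6h, 12h, 24h and 48h, where 23.1%, 15.9%, 15.8% and 27.0% of all genes did. Both lay below in 5, 9, 6 and 8 members, where 16.4%, 32.3%, 37.2% and 28.0% of all genes did.

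The regulators were expressed throughout, and 0 of 5 passed limma's test in a comparison with 0h (1, 0, 0 and 1 at an unadjusted p under 0.05 at 6h, 12h, 24h and 48h, cuts that 12.3%, 15.8%, 20.6% and 24.8% of all genes met). Atf4, the factor translated when eIF2 is phosphorylated, had 147 and 147 FPKM at 0h, 138 and 138 at 6h, 140.0 and 159.9 at 12h, 136 and 137 at 24h, and 122 and 126 at 48h. Both libraries lay below both 0h libraries at 6h, 24h and 48h, and the 12h libraries overlapped them. The 48h difference in Atf4 was -0.24 ± 0.11 log2 (SE, n = 2 libraries each; limma adjusted p = 0.197). An abundance of Atf4 mRNA says nothing of how much of it was translated.

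Ddit3, which encodes the pro-apoptotic factor CHOP, had 25.5 and 23.8 FPKM at 0h, 23.3 and 30.4 at 6h, 26.6 and 23.4 at 12h, 25.8 and 31.7 at 24h, and 26.6 and 35.8 at 48h. Its 24h and 48h libraries lay above both 0h libraries, while those of 6h and 12h overlapped them. The difference at 48h was 0.31 ± 0.18 log2 (SE; limma adjusted p = 0.31; 95% interval -0.08 to 0.71). Exons of Ddit3 share 68 bases with Mars on the opposite strand, and the strand setting of the quantification is not given, so reads from these bases cannot be told apart between the genes.

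Xbp1, the IRE1 substrate, had 57.2 and 75.5 FPKM at 0h, 64.4 and 84.3 at 6h, 69.8 and 82.4 at 12h, 67.8 and 82.8 at 24h, and 78.7 and 83.0 at 48h. Library 3 was higher than library 2 at each time, and 48h was the time at which both libraries lay above both 0h libraries. None of its comparisons passed the test (limma adjusted p from 0.343 at 48h to 0.734 at 6h). The sensors themselves were low: Ern1 averaged 3.37 FPKM and Atf6 between 5.92 and 7.69 FPKM by time. Ern1 had the widest relative spread of the members, 1.86 and 3.39 FPKM at 0h and 3.99 and 5.30 at 6h, a difference of 0.66 ± 0.22 log2 (SE; limma adjusted p = 0.267).

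Among the 7 genes known as ATF4 or CHOP targets, 2 rose against 0h: Chac1, which encodes a glutathione-degrading enzyme induced through ATF4 and CHOP, and Nupr1, a small chromatin-associated stress protein. When the 4 comparisons with 0h were tested jointly (F test), 3 members passed (Nupr1, limma adjusted p = 0.0101; Phgdh, 0.0143; Chac1, 0.0274), where 7.35% of all genes did. Called higher were 1 of the 7 at 24h and 2 at 48h, where 1.37% and 4.80% of all genes were. The median log2 fold changes of these 7 genes were 0.30, 0.05, 0.10 and 0.22 at 6h, 12h, 24h and 48h. Those of all genes tested were 0.04, -0.07, -0.10 and -0.01. At 48h all 7 fold changes were positive, from 0.14 to 0.91, though only the 2 named passed. Of all 13625 genes tested, 6578 were positive at 48h. At 12h, 4 of the 7 were positive and 3 negative.

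Both genes that rose carry the core of an amino acid response element, the site through which ATF4 dimers act, in the 250 bases before their start. The sequences are shown because they belong to the members that rose, in RefSeq's gene orientation on build GRCm38.p6, with the core (TGATG, 1 free base, AA; found on the reverse strand in both) in capitals. That of Chac1 is chr2:119350992-119351241 on the plus strand, and that of Nupr1 is chr7:126625471-126625720 on the minus strand; both genes are protein coding, and the GENCODE gene model of Nupr1 also extends upstream of this start.
Chac1: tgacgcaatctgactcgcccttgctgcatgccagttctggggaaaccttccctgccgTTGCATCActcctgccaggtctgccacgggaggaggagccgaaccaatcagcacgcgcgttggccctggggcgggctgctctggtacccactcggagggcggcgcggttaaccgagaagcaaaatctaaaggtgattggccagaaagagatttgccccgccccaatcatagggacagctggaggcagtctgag
Nupr1: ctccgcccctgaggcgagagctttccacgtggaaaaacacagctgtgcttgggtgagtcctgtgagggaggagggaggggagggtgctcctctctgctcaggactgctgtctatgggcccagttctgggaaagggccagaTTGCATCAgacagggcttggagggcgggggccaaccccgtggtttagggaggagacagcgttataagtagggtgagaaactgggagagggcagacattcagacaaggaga

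The same core was found in 5 of the 33 members with an entry in RefSeq's promoter table, which holds 250 bases before and 50 after each start. Of the 7 ATF4 and CHOP targets, 4 held it, Chac1 from base -193 to -186, Nupr1 from -110 to -103, Trib3 from 15 to 22 and Asns from -23 to -16, counted from the start. The fifth was Herpud1, from -112 to -105. Over the 27025 promoters counted in RefSeq's table, whether or not their genes are in the expression table, 4.06% held the core on either strand. The sites are set side by side below with 5 bases on each side, read along the motif, so that the shared letters and the free base can be compared. Trib3 and Asns, whose values are given further on, did not pass the test, so the letters were found in members that passed and in members that did not. Phgdh, which passed the F test, did not hold the core, nor did Psat1 and Ddit4. A match describes letters and is not evidence of binding.
Chac1: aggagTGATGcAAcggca
Nupr1: ctgtcTGATGcAAtctgg
Trib3: ccggcTGATGtAAacctg
Asns: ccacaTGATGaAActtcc
Herpud1: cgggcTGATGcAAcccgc

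Chac1 had 115 and 128 FPKM at 0h, 139 and 163 at 6h, 179 and 250.4 at 12h, 239 and 212 at 24h, and 207 and 215 at 48h. Every library after the injection lay above both 0h libraries, and the 24h mean was the highest of the 5. It averaged 225 ± 19.2 FPKM at 24h, 211 ± 6.05 at 48h and 121 ± 9.42 at 0h (SD, n = 2 each). The change was 0.89 ± 0.16 log2 at 24h against 0h (SE; 1.85-fold; 95% interval 0.52 to 1.25; limma adjusted p = 0.0241). At 48h it was 0.80 ± 0.16 log2 (SE; 95% interval 0.43 to 1.16; limma adjusted p = 0.0165). At 12h the difference, 0.80 log2, missed the threshold (limma adjusted p = 0.0529). Each call rests on its 4 libraries: without any 1 of the 0h or 24h libraries the 24h adjusted p was 0.0822 to 0.161, and without any 1 of the 0h or 48h libraries the 48h adjusted p was 0.0635 to 0.110, with fold changes of 0.72 to 0.97. The genome holds it on chromosome 2 from base 119351229 to 119354381 (GENCODE, mm10), with no exon of another gene across its own.

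Nupr1 had 167 and 155 FPKM at 0h, 229.8 and 214 at 6h, 195 and 168 at 12h, 215 and 222 at 24h, and 303 and 302 at 48h. All 8 later libraries lay above both 0h libraries, and the 48h libraries stood above every other. It averaged 303 ± 0.654 FPKM at 48h and 161 ± 8.30 at 0h (SD, n = 2 each), a change of 0.91 ± 0.12 log2 (SE; 1.88-fold; 95% interval 0.65 to 1.17; limma adjusted p = 0.00172). This call kept its side of the threshold when each library was left out in turn. At 6h and 24h the differences were 0.46 and 0.44 log2, with limma adjusted p of 0.177 and 0.0701. The means were ordered differently over time in the genes that rose, a difference that was not tested. Chac1 was near its highest mean by 12h, whereas Nupr1 stood at 181 ± 19.0 FPKM at 12h and reached its highest mean at 48h.

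**Figure D2:**
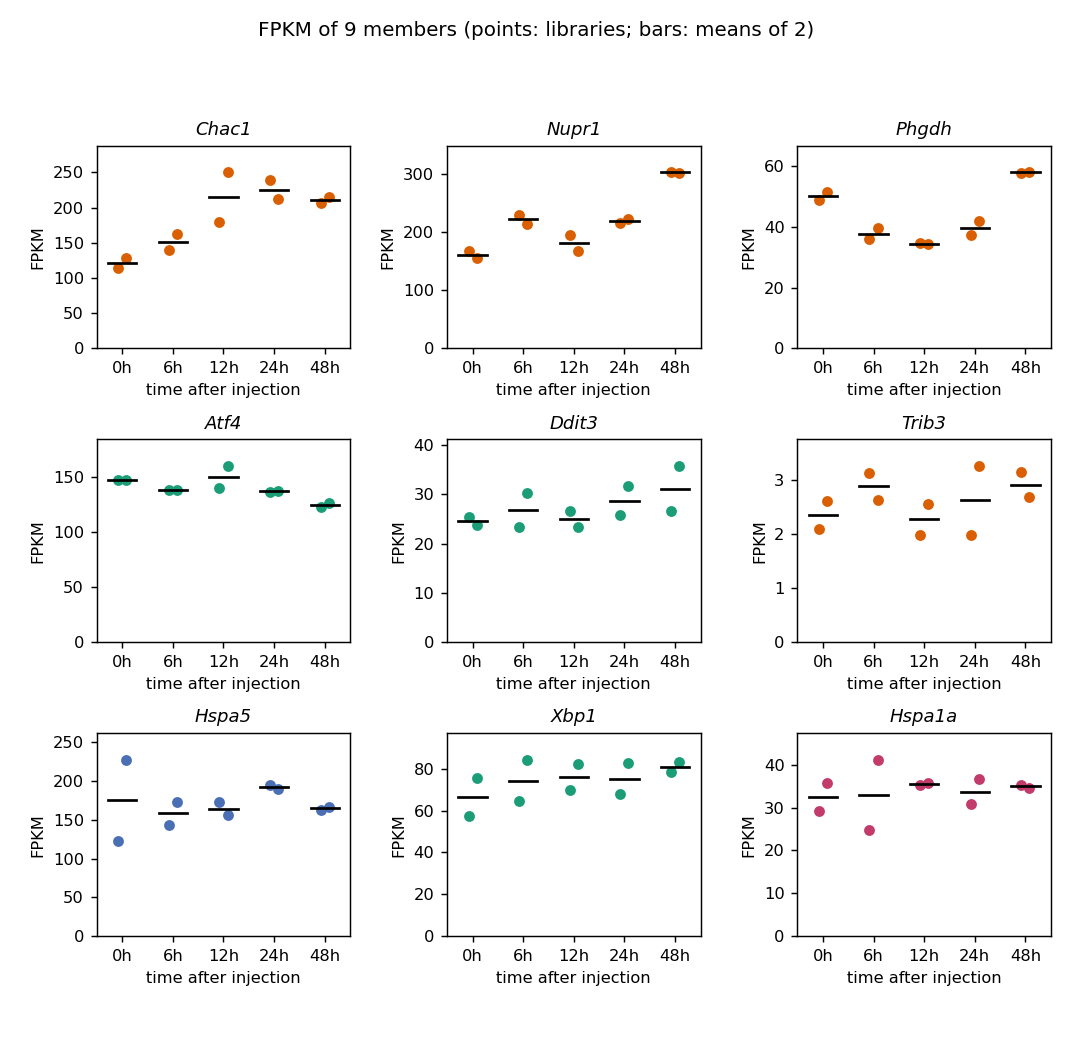
FPKM (y axes, from 0) against time after injection (x axes) in 9 members; points are libraries and bars the means of 2. Chac1 lies between 179 and 250.4 FPKM from 12h on, against 115 and 128 at 0h, and Nupr1 stands at 303 and 302 at 48h. The 0h points of Hspa5 enclose all its later points, while some later points of Xbp1 and Hspa1a lie outside those of 0h.

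Phgdh, the first enzyme of serine synthesis and an ATF4 target, moved in both directions. It had 48.9 and 51.6 FPKM at 0h, 36.0 and 39.7 at 6h, 34.7 and 34.3 at 12h, 37.3 and 42.1 at 24h, and 57.9 and 58.2 at 48h. The libraries of 6h, 12h and 24h all lay below both 0h libraries, and those of 48h lay above them. It rose by 0.61 ± 0.11 log2 at 48h against 6h (SE; limma adjusted p = 0.0145) and by 0.54 ± 0.11 log2 at 48h against 24h (SE; limma adjusted p = 0.0404). It was the only member called in these 2 comparisons. At 48h against 6h, 5.75% of all genes were called and 2.72% were higher, and at 48h against 24h, 2.26% were called and 1.22% were higher. The call at 48h against 24h was lost under several other settings, and its adjusted p was 0.0583 when libraries were scaled by median of ratios. Against 0h the differences were -0.53 log2 at 12h (limma adjusted p = 0.0559) and 0.20 log2 at 48h (limma adjusted p = 0.287), so no single comparison with 0h passed.

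Psat1, the next enzyme of the same pathway, is described because its values were seen to resemble those of Phgdh. It had 44.6 and 41.4 FPKM at 0h, 43.7 and 34.7 at 6h, 35.0 and 27.8 at 12h, 37.2 and 43.9 at 24h, and 45.9 and 49.0 at 48h. Its lowest mean was at 12h and its highest at 48h, as in Phgdh, but it passed in no comparison (limma adjusted p for the F test, 0.146). Markers of dividing cells moved along with these values: Mki67, Top2a, Ccnb1, Cdk1, Aurkb and Bub1 summed to 86.7 and 99.1 FPKM at 0h, 70.2 and 60.5 at 6h, 64.5 and 40.4 at 12h, 62.7 and 44.3 at 24h, and 98.5 and 103 at 48h. Of these 6 markers, all 6 were measured, none was at 0, and 1, Mki67, fell at 24h against 0h (-1.16 log2, limma adjusted p = 0.0228). At 48h against 24h, where Phgdh rose, Aurkb rose too (0.96 log2, limma adjusted p = 0.0424), and all 6 differences were positive, from 0.74 to 0.96 log2, each with an unadjusted p under 0.05. Of all 13625 genes tested, 8674 were positive there and 18.8% met that cut. At 48h against 6h all 6 markers were positive and none passed, with 3 at an unadjusted p under 0.05. In that comparison 6084 of all genes were positive and 24.3% met the cut. Their part in the course of Phgdh was not tested.

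**Figure D3:**
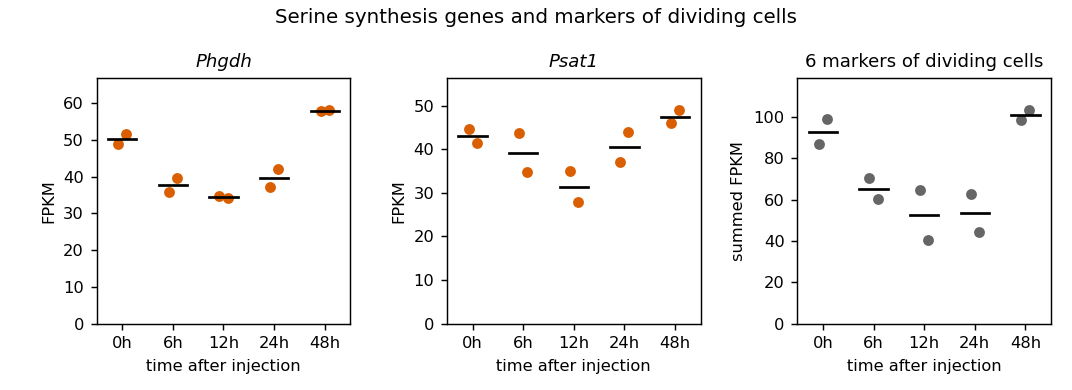
FPKM of Phgdh and Psat1 and the summed FPKM of 6 markers of dividing cells (y axes, from 0) against time after injection (x axes); points are libraries and bars the means of 2. All 3 panels are lowest at 12h (markers 64.5 and 40.4) and highest at 48h (markers 98.5 and 103, against 86.7 and 99.1 at 0h).

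The other targets in this group changed little. Asns, asparagine synthetase, had 14.3 and 16.5 FPKM at 0h, 20.5 and 19.7 at 6h, 17.3 and 17.8 at 12h, 15.6 and 18.2 at 24h, and 16.6 and 18.4 at 48h. Its 6h libraries stood above all others, a difference of 0.37 ± 0.12 log2 from 0h (SE; limma adjusted p = 0.282). Trib3, a pseudokinase that restrains ATF4, was the member with the lowest level, at 2.10 and 2.60 FPKM at 0h, 3.13 and 2.63 at 6h, 1.98 and 2.56 at 12h, 1.99 and 3.26 at 24h, and 3.14 and 2.67 at 48h. The spread between its 24h libraries was nearly as wide as its range over the series, and its limma adjusted p ran from 0.533 to 0.949. Ddit4, which restrains mTORC1, lay between 51.2 and 83.5 FPKM and differed from 0h by 0.01 to 0.32 log2.

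Cell types whose markers moved at 24h and 48h stand beside the calls of Chac1 and Nupr1. Epidermal keratinocyte markers, 7 of 7 measured and none at 0, summed to 13500 and 14630 FPKM at 48h and to 8647 and 7123 FPKM at 0h, and 4 of the 7 (Krt14, Krt5, Krt1, Krt10) rose. Of 8 hair shaft keratins, 1 fell at 24h, and at 48h 2 rose and 2 fell; Krt35 fell by 1.83 log2 at 48h. Of 12 skeletal muscle markers 5 fell at 24h and 7 at 48h. Of 5 melanocyte markers, all measured and none at 0, Pmel rose at 24h (0.68 log2, limma adjusted p = 0.0318), and Pmel and Dct rose at 48h (0.83 and 0.80 log2; 0.00667 and 0.0113). The melanocyte sum was 908 and 729.8 FPKM at 24h and 791 and 828 at 48h, against 636 and 606 at 0h. Of 5 endothelial markers 1, Pecam1, rose at 48h (0.75 log2, limma adjusted p = 0.0210), and their sum was 46.1 and 48.1 FPKM at 48h, against 30.2 and 40.7 at 0h. Of the 7 neutrophil genes listed, 3 passed the filter, and their sum was 404 and 254 FPKM at 24h and 386 and 429 at 48h, against 72.1 and 110.0 at 0h. S100a8 rose at 24h (1.85 log2, limma adjusted p = 0.0114) and at 48h (2.27 log2, 0.00144), and S100a9 rose at 24h (1.63 log2, 0.0306). Epidermal keratinocytes can express both. Camp lay between 0.572 and 4.24 FPKM in all libraries, Ly6g has no row used here, Ngp was at 0 in every library, and Mpo and Elane were below 1 FPKM. Of the plasma and B cell markers, Jchain and Ms4a1 did not exceed 0.127 FPKM in a library, while Sdc1, which keratinocytes also express, rose by 0.55 log2 at 48h against 0h (limma adjusted p = 0.0303), to 276 and 297 FPKM, against 184 and 208 at 0h. Of the fibroblast, adipocyte and macrophage markers, 0 of 6 in each list passed limma's test at 24h or 48h, with 1, 0 and 0 at an unadjusted p under 0.05 at 24h and 0, 0 and 1 at 48h. The part of these shifts in the calls of Chac1 and Nupr1 was not tested.

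ER chaperones and folding enzymes showed no call in either direction at any time. With 12 of 12 measured, the counts at an unadjusted p under 0.05 were 2, 3, 0 and 1 at 6h, 12h, 24h and 48h, where 12.3%, 15.8%, 20.6% and 24.8% of all genes passed. Their median log2 fold changes were -0.10, -0.10, -0.05 and -0.08, beside 0.04, -0.07, -0.10 and -0.01 for all genes. Hspa5, which encodes BiP, the main Hsp70 of the ER and the textbook readout of the unfolded protein response, had 122 and 227 FPKM at 0h, 144 and 173 at 6h, 173 and 156 at 12h, 195 and 190.2 at 24h, and 163 and 166 at 48h. All 8 later libraries lay between the 0h values. The 24h difference was 0.21 ± 0.23 log2 (SE; 95% interval -0.31 to 0.73; limma adjusted p = 0.645), and that at 48h was -0.02 log2 with an interval of -0.54 to 0.50.

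Creld2, an ER-resident protein readily induced by misfolded protein, lay in the other direction, with means of 27.1 to 31.8 FPKM after the injection and 39.5 FPKM at 0h. Its differences from 0h ran from -0.51 log2 at 6h to -0.29 log2 at 24h, with limma adjusted p of 0.184 to 0.319. Dnajb9, an IRE1 repressor and XBP1 target, had 10.7 ± 0.725 FPKM at 6h and 7.79 ± 2.05 at 0h (SD, n = 2 each). Calr, a lectin chaperone, was the most abundant of the group at 180 to 239 FPKM, and Dnajb9 the least, at 6.34 to 11.3 FPKM.

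The choice of 0h library set the sign of this group. All 12 ER chaperones and folding enzymes and all 4 degradation genes were higher in 0h library 3 than in 0h library 2, with median log2 differences of 0.47 and 0.31. Over all members 31 of 38 (81.6%) were higher in 0h library 3, with a median of 0.31, while over all genes tested 62.0% were, with a median of 0.08. The difference between the 0h libraries exceeded every later change in 10 of the 12 ER genes, 3 of 4 degradation genes, 7 of 8 cytosolic heat shock genes, and 22 of 38 members. That difference is between 2 single libraries and each change between means of 2, so library noise weighs more on the former. The share of all genes in which this held was not computed. An absolute 0h difference over 0.3 log2 was found in 22 of 38 members, beside 26.5% of all genes tested. Set against 0h library 3 alone, the ER group's median log2 fold changes were -0.31, -0.38, -0.24 and -0.31 at 6h, 12h, 24h and 48h. Set against 0h library 2 alone they were 0.22, 0.12, 0.14 and 0.17. These medians were added after the spread was seen. The libraries at issue are those with the lowest and the highest relative depth. Their marker sums differed too, in both directions. In 0h libraries 2 and 3, red blood cell markers summed to 4.02 and 84.1 FPKM and macrophage markers to 248 and 344. Adipocyte markers summed to 1761 and 2253 FPKM, and epidermal keratinocyte markers to 8647 and 7123. The part of depth and of cell content was not tested.

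**Figure D4:**
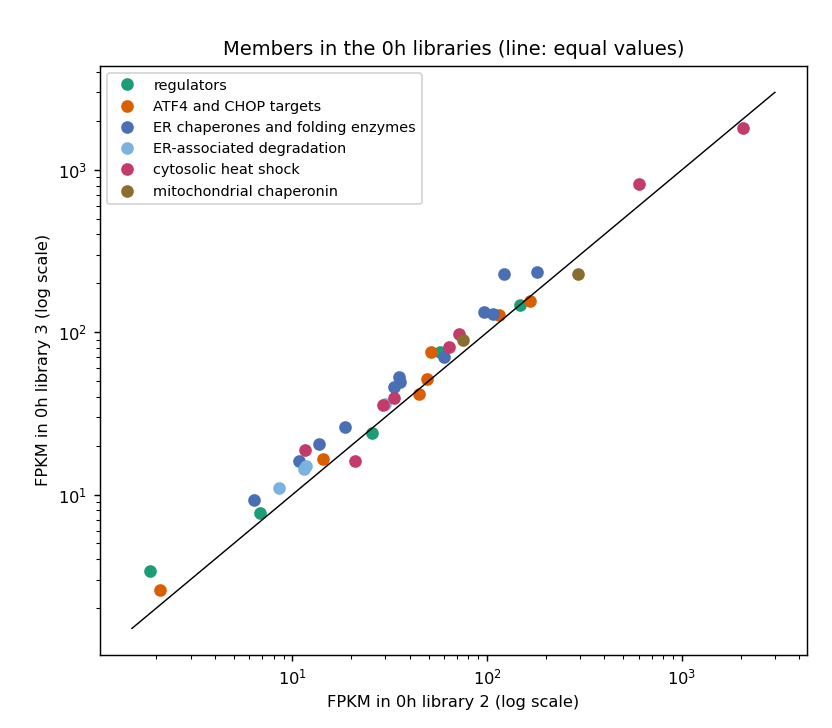
FPKM of the 38 members in 0h library 3 (y axis, log scale) against 0h library 2 (x axis, log scale), coloured by role; the line marks equal values. All 12 ER chaperones and folding enzymes lie above the line, with Hspa5 at 227 in library 3 and 122 in library 2.

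The promoters of these ER genes are shown at their ER stress elements, CCAAT and CCACG separated by 9 bases, the site through which NF-Y and cleaved ATF6 act, because the element marks the group although its mRNA was not called. It was found in 7 of the 10 ER chaperones with an entry and in Syvn1, which is 8 of 33 members (24.2%), against 0.13% of all 27025 promoters, counting both strands. The members were listed as known genes of these responses, so this share describes the list and is not a result of the expression values. Sequences are RefSeq's, GRCm38.p6, with 5 bases on each side, read along the motif, and the fixed letters are in capitals; Hsp90b1 holds 2.
Hspa5: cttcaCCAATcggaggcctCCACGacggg
Hsp90b1: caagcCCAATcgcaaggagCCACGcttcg
Hsp90b1: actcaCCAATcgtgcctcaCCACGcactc
Pdia6: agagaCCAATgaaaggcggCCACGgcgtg
Calr: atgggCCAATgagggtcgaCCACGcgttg
Canx: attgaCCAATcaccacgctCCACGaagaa
Creld2: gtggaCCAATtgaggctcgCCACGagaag
Dnajc3: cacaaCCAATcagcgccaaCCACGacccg
Syvn1: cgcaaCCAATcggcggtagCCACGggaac

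Of the 4 ER degradation genes, 0 passed limma's test against 0h, with 0, 0, 0 and 1 at an unadjusted p under 0.05 at 6h, 12h, 24h and 48h, beside the same shares of all genes. Herpud1, a membrane scaffold of the degradation complex, had 42.2 ± 3.54 FPKM at 48h and 33.1 ± 4.66 at 0h (SD, n = 2 each), a difference of 0.35 log2 (limma adjusted p = 0.191), with both 48h libraries above both at 0h. Its promoter was the only one of 33 to hold the ER stress element II (ATTGG, 1 free base, CCACG), which 0.037% of all promoters hold. The UPR element (TGACG followed by TGG) was in none of the 33 and in 0.607% of all promoters. Edem1, Sel1l and Syvn1, a mannosidase-like protein, an adaptor and the ubiquitin ligase HRD1, lay between 8.52 and 15.7 FPKM and differed from 0h by no more than 0.25 log2 at any time.

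By limma's test 0 of the 8 cytosolic heat shock genes were called against 0h, with 0, 1, 1 and 2 at an unadjusted p under 0.05 at 6h, 12h, 24h and 48h, where 12.3%, 15.8%, 20.6% and 24.8% of all genes passed. Their median log2 fold changes were -0.03, -0.01, -0.09 and -0.05 at 6h, 12h, 24h and 48h. Hspa1a, an inducible Hsp70, had 29.2 and 35.8 FPKM at 0h, 24.9 and 41.2 at 6h, 35.4 and 35.7 at 12h, 30.8 and 36.7 at 24h, and 35.3 and 34.7 at 48h. Its near-identical copy Hspa1b had 63.7 and 81.1 FPKM at 0h, 54.2 and 81.3 at 6h, 76.1 and 70.6 at 12h, 66.0 and 63.6 at 24h, and 69.2 and 71.6 at 48h. In both genes the libraries of each later time overlapped those of 0h. Their limma adjusted p were 0.781 to 0.988 and 0.675 to 0.957, and the 95% intervals at 48h were -0.34 to 0.57 and -0.43 to 0.38 log2. Reads could be split between the copies in quantification, and exons of Hspa1a share 564 bases with Gm20481 on the opposite strand, so their levels are uncertain.

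Hspb1 (Hsp27), a small heat shock protein abundant in epidermis, was the most highly expressed member and is named after its values were seen. It had 2049 and 1803 FPKM at 0h, 1766 and 2113 at 6h, 2607 and 3059 at 12h, 2725 and 2482 at 24h, and 2371 and 2345 at 48h. All 6 libraries from 12h on lay above both 0h libraries, but the difference of 0.55 ± 0.15 log2 at 12h did not pass (SE; limma adjusted p = 0.117; F test, 0.0934). Hair shaft keratins summed to 10126 and 10971 FPKM at 12h and 7903 and 8211 at 0h, and their part was not tested. Hsph1 (Hsp105), an Hsp70 nucleotide exchange factor, had 8.75 and 9.37 FPKM at 48h and 11.6 and 18.9 at 0h, a difference of -0.65 ± 0.20 log2 (SE; limma adjusted p = 0.076). Hsp90aa1, the inducible cytosolic Hsp90, had 62.5 ± 0.272 FPKM at 48h and 84.5 ± 18.4 at 0h (SD, n = 2 each; limma adjusted p = 0.142). Hspa8 (constitutive Hsp70), Dnajb1 (an Hsp40) and Bag3 (a cochaperone) each varied by 1.28- to 1.36-fold between their lowest and highest library.

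The mitochondrial chaperonin subunits Hspd1 (Hsp60) and Hspe1 (Hsp10) lay below 0h at 12h and 24h without passing the test (0 of 2 by limma, with 2 at 12h and 1 at 24h at an unadjusted p under 0.05, beside 15.8% and 20.6% of all genes). Hspd1 averaged 64.1 ± 2.78 FPKM at 24h and 82.2 ± 10.4 at 0h, and Hspe1 193 ± 4.10 at 24h and 261 ± 43.8 at 0h (SD, n = 2 each). The differences were -0.35 log2 (limma adjusted p = 0.153) and -0.42 log2 (0.245). Both libraries of 12h and of 24h were below both 0h libraries in each gene. The genes lie head to head and share 112 exonic bases on opposite strands. A heat shock element (GAA, TTC, GAA or TTC, GAA, TTC, each 2 bases apart) was found in Hspe1 and Hsph1, 2 of 33, and in 0.529% of all promoters, where the first entry of each gene was counted. The second entry of Hspd1 also held it, at bases -144 to -132 and -139 to -127 from that start. All motif searches took exact letters and spacing within the promoter entries alone. An absent match thus does not mean that a gene lacks a looser or more distant site. Hspa8 and Hsp90aa1 had no entry.

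**Figure D5:**
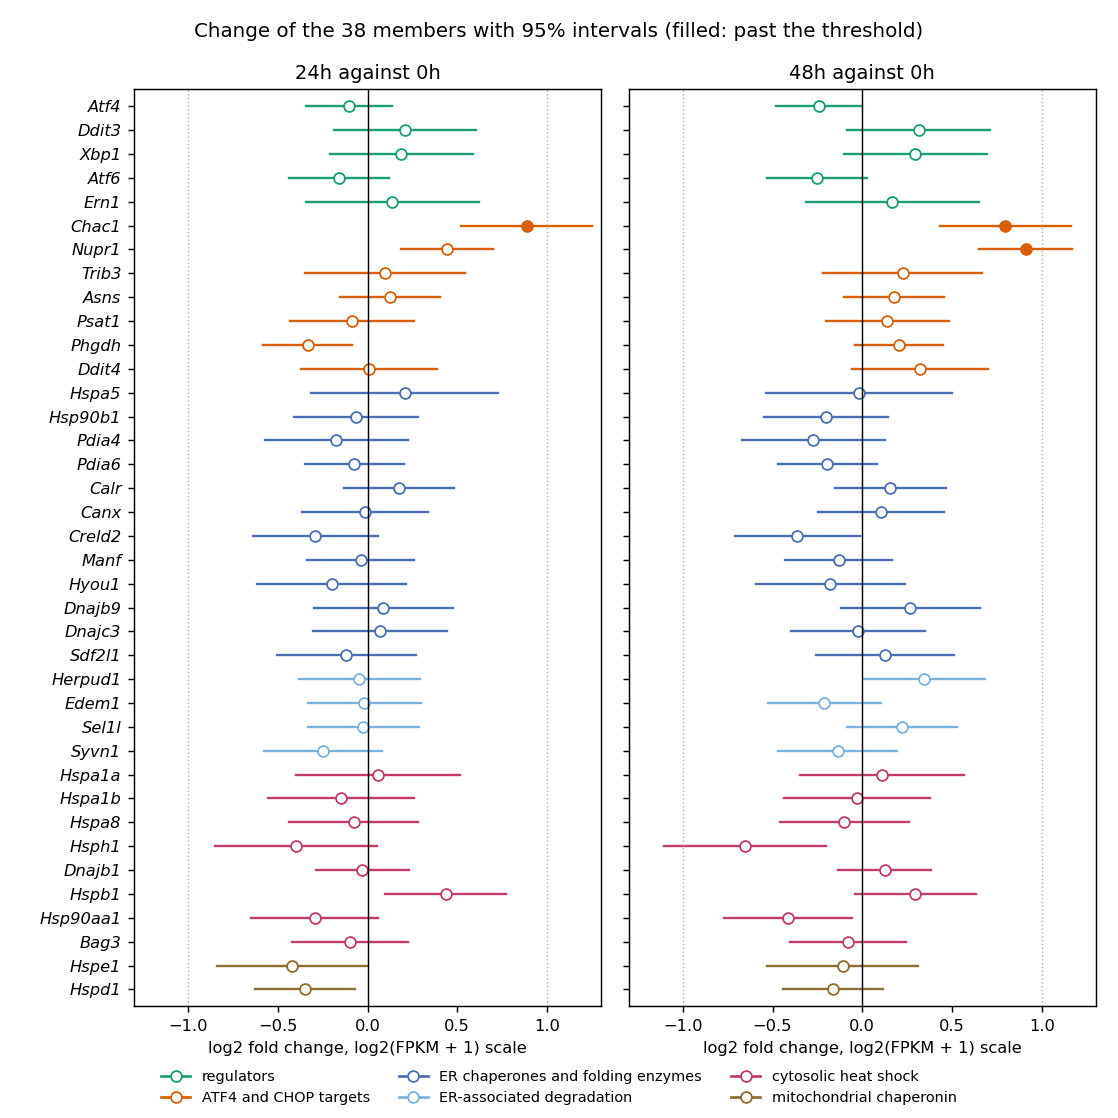
Log2 fold changes of FPKM + 1 (x axes) with 95% confidence intervals for the 38 members (rows, coloured by role) at 24h against 0h (left) and 48h against 0h (right); filled points passed the adjusted p threshold of 0.05. Chac1 (0.89 and 0.80) and Nupr1 at 48h (0.91) are filled, and the other points are open.

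Between neighbouring times no member was called at 12h against 6h (0 of 38 beside 0.00% of all genes; at an unadjusted p under 0.05, 4 members and 11.4% of all genes) or at 24h against 12h (0 of 38 beside 0.0220% of all genes; unadjusted, 3 members and 9.90% of all genes), by the same limma test.

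Other genes of these pathways were counted in 3 further lists. Of 39 other integrated stress response genes tested (of 40 listed), 1 fell at 48h against 0h, where 4.12% of all genes fell. It was Xpot, an exporter of tRNA, with 10.4 ± 0.318 FPKM at 48h and 15.4 ± 1.43 at 0h (SD, n = 2 each; -0.52 log2, limma adjusted p = 0.0302). None passed at 6h, 12h or 24h, with 3, 3 and 7 at an unadjusted p under 0.05, where 12.3%, 15.8% and 20.6% of all genes did. At 48h against 6h, the comparison in which Phgdh rose, 4 of the 39 fell where 3.03% of all genes did, and they are named after their values were seen: Xpot (-0.72 log2), Eif2s1 (-0.66), a subunit of eIF2, and the tRNA synthetases Yars (-0.60) and Gars (-0.46), with limma adjusted p of 0.0116 to 0.0484. Of 33 other ER chaperone, translocon and degradation genes tested (of 34), 1 fell at 48h against 0h, beside the same 4.12% of all genes. This gene was Ero1l, the ER oxidase that drives disulfide formation. It averaged 17.1 ± 2.10 FPKM at 48h and 31.8 ± 4.35 at 0h (SD, n = 2 each; -0.85 log2, limma adjusted p = 0.00517). It also fell at 48h against 24h and against 6h (-1.32 and -1.16 log2; limma adjusted p = 0.00527 and 0.00250). None passed at 6h, 12h or 24h, with 3, 3 and 5 at an unadjusted p under 0.05. The medians at 48h were -0.10 and 0.06 log2 for these lists, beside -0.01 for all genes.

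The 39 other heat shock and cochaperone genes held more calls: 0 at 6h, 1 rose at 12h, 2 rose and 3 fell at 24h, and 2 rose and 3 fell at 48h. At an unadjusted p under 0.05 there were 7, 10, 16 and 11 at 6h, 12h, 24h and 48h. Of all genes, 12.3%, 15.8%, 20.6% and 24.8% met that cut. The adjusted calls were 0, 1, 5 and 5 of 39 at 6h, 12h, 24h and 48h, where 0.0440%, 1.08%, 3.32% and 8.92% of all genes were called. By direction, 1.37% of all genes rose and 1.94% fell at 24h, and 4.80% rose and 4.12% fell at 48h. At 48h against 6h, 3 of 39 were called, where 5.75% of all genes were. Hspb7, a small heat shock protein of heart and skeletal muscle, averaged 52.1 ± 7.47 FPKM at 12h, 73.2 ± 0.934 by 24h and 46.9 ± 1.22 by 48h, against 14.5 ± 4.74 at 0h (SD, n = 2 each). It rose by 1.81, 2.30 and 1.66 log2 at 12h, 24h and 48h (limma adjusted p = 0.0143, 0.00189 and 0.00210). Cryab, alphaB-crystallin, averaged 511 ± 124 FPKM at 24h and 180 ± 39.8 at 0h (SD, n = 2 each; 1.49 log2, limma adjusted p = 0.00687) and rose by 1.12 log2 at 48h (limma adjusted p = 0.00849). Both genes are known from muscle. The skeletal muscle sum over the same libraries lay lower after the injection than at 0h, as given above. Its markers did not all move alike: at 24h and at 48h, 11 of 12 had negative fold changes against 0h and 1, Myh1, a positive one. Myh1 had 81.6 and 74.2 FPKM at 0h, 180 and 167 at 24h, and 142 and 296 at 48h. The part of muscle content in the rises of Hspb7 and Cryab was not tested. At 24h the HSP90 cochaperones Fkbp4 (-0.53 log2), Ptges3 (-0.47) and Stip1 (-0.45) fell (limma adjusted p of 0.0395 to 0.0471). At 48h Hspb3 (-1.44 log2), Hspa2 (-0.72) and the chaperonin subunit Cct5 (-0.43) fell (limma adjusted p of 0.0293 to 0.0358). Stip1 and Cct5 are named after their values were seen, to complete the counts.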

How the data were processed

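RNA-seq of 10 libraries of mouse back skin was read from the gene table the authors deposited, whose values were taken as FPKM because they are not whole numbers and Cufflinks was used; the header names no unit. TopHat2 2.1.1, Cufflinks 2.2.1 and build mm10 are named, per the submitters' processing notes, without roles; annotation, filters and strand setting: not given in the sources used here. Of 24358 rows, 27 whose symbol had become a date were left out, and 103 name several genes. Columns carry the numbers 2 and 3 and the labels 1 and 2, so columns were matched to times only. Depth is known only relative to 0h library 2, from the smallest values, and counts are not available to give intervals.

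The members and lists were chosen with earlier results of these data known. The 13625 genes that reached 1 FPKM in 2 or more libraries were fitted as log2(FPKM + 1) with limma 3.58.1 in R 4.3.3, 1 mean per time over all 10 libraries (5 residual degrees of freedom), with an intensity trend, and Benjamini-Hochberg adjustment over all genes tested, two-sided at 0.05. An F test covered the 4 comparisons with 0h. The fit was tested on simulated data. Per-library values are given for members past the threshold and for Atf4, Ddit3, Xbp1, Hspa5, Trib3, Asns, Hspa1a and Hspa1b, and up to 4 called genes with the largest change are named per further list and time; others described in detail were chosen after their values were seen. Promoters are from RefSeq's table (GRCm38.p6), in which 33 of 38 members matched; Atf6, Manf, Hyou1, Hspa8 and Hsp90aa1 did not. Exon overlaps are from GENCODE. Alternatives were a pseudocount of 0.1, no filter, a mean of at least 5 FPKM, median-of-ratios, quantile and keratin-free scaling, no trend, a library-number block, fits of 2 times alone, and each library left out.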

Additional observations from a re-analysis of the deposited data

How the results depend on the processing

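Over 170 recomputed counts of members past the threshold, 136 stayed within 1.5 times the reported count. These include 6h against 0h, 12h against 6h and 24h against 12h, where 0 members and 6, 0 and 3 of 13625 genes passed in the main fit. Counts were compared without regard to which members passed, so the total does not measure how stable the calls were. Of 149 recomputed values of called members, 114 kept their side of the threshold, 35 no longer passed and 0 reversed. At 12h against 0h (0 reported), 1 member passed with keratin-free scaling (Chac1). At 24h (1 reported), 0 passed once the filter was dropped, and 2 passed under keratin-free scaling (Chac1, Nupr1). At 48h against 24h (1 reported), 0 passed with no filter, median-of-ratios scaling, keratin-free scaling, no intensity trend, or a fit of the 2 times alone. At 48h against 6h (1 reported), 2 passed with a mean of at least 5 FPKM (Nupr1, Phgdh) and 0 in the fit of 2 times alone. The cause was not tested.

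With 1 library left out in turn, the counts ran from 0 to 0 at 6h, 0 to 2 at 12h, 0 to 1 at 24h and 1 to 2 at 48h against 0h, 0 to 0 at 12h against 6h and 24h against 12h, 0 to 1 at 48h against 24h and at 48h against 6h, and 0 to 3 in the F test, where 0 passed without either 48h library. Without 0h library 2 the 2 calls at 48h were Nupr1 and Hsph1. A lone library is then assumed to vary like the others. Keratin-free scaling moved the median of all genes at 12h to 0.03 log2, from -0.07.

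With the library number as a replicate block, 2 members passed at 12h (Chac1 rose, Phgdh fell) where 0 had, and the other counts stayed the same. Deviations of libraries with the same number correlated at -0.104 to 0.216 between times, so the numbers are not taken to pair samples. With 2 libraries a time, changes under about the width of the intervals given were not detectable, and library depth is known only in relative terms.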
